A study of Arabidopsis thaliana with 2 samples.

Results

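The genes described here are those of Arabidopsis thaliana named as serine carboxypeptidase-like (SCPL) or subtilase (SBT) proteins. They were taken as every probe set, the group of short oligonucleotides that reads a transcript on an Affymetrix array, that the platform annotation assigns to 1 gene with a symbol beginning SCPL or SBT and a number, in either letter case. The rule found 36 probe sets for 36 genes, 29 of them SCPL and 7 SBT. The array has 22810 probe sets, and 13356 genes have one or more that name them alone. Only such probe sets, 13513 in all, were searched for the other genes named below. A gene said to have no probe set of its own may still be read by a probe set outside these. The rule itself uses the symbol and no signal. Symbols are given as the annotation writes them, so that capitals and small letters (SCPL27, scpl26) mark no difference in kind.

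Stem RNA of 2 samples was hybridized to the ATH1 GeneChip, with 1 array each. One was of plants that carried 35S::AtC3H14 and overexpressed AtC3H14, a CCCH zinc finger protein gene that the series names as a target of MYB46, and the other of wild-type plants. Both were of the Columbia (Col-0) background, 30 days old and grown on soil at 23 °C under a day of 16 h light and 8 h dark, and the stem was cut from its base to internode 3. The 35S promoter is a viral promoter active in most plant tissues, and where in the stem AtC3H14 was raised was not measured. The number of plants behind each sample and the number of transgenic lines are not given in the sources used here.

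Serine carboxypeptidases remove single amino acids from the carboxyl end of proteins with a catalytic serine, and most are made with a signal peptide that sends them to the vacuole or the cell wall. In plants some members of the fold have become acyltransferases, which move acyl groups from glucose esters to other molecules, as in the synthesis of sinapate esters. Subtilases are serine endopeptidases that are made as inactive precursors and mostly secreted into the cell wall, where known substrates include peptide hormone precursors and pectin methylesterases. The number before the point in an SBT symbol is the subfamily.

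The values are MAS5 signals on a linear scale, and all ratios are 35S::AtC3H14 over wild type. A floor was set at the 40th percentile of all signals outside the control probe sets, which was 104.0. Where both signals of a gene lay under the floor no ratio was formed. Where 1 of them did, the floor took its place, and the result is a bound, written "at least N-fold". With 1 array per genotype no test was possible, nothing could be set against variation between plants, and differences were sorted by whether they reached 2-fold. A stem sample mixes many cell types, and fewer cells of a type and less RNA per cell cannot be told apart. AtC3H14 (AT1G66810) itself had a signal of 8655 in 35S::AtC3H14 stem, against 244 in wild-type stem, in the direction of the labels. As for the labelled tissue, the wall synthesis genes IRX10, IRX15, IRX15-L, HCT and COB, which are active in stem, had signals from 1826 to 6388 in 35S::AtC3H14 stem and from 2501 to 8828 in wild-type stem. The other measured genes of the stem list, CLE44 and PHV, were at least 2-fold lower in 35S::AtC3H14 stem and are given beside scpl30. The leaf genes LHCB4.1, PRK and RCA were measured on both arrays and under 2-fold. Their signals ran from 6855 to 19298 in 35S::AtC3H14 stem and from 6427 to 18741 in wild-type stem. Signal levels of these lists therefore do not set stem apart from leaf. The root list had probe sets for 2 of its 5 entries, of which PYK10 was at least 5.90-fold lower in 35S::AtC3H14 stem, and the flower list for 0 of 6.

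Of the 36 genes, 20 were measured, 16 of them on both arrays and 4 by a bound, and 16 lay below the floor on both arrays. SBT1.3, scpl46 and scpl26 were at least 2-fold higher in 35S::AtC3H14 stem, and scpl30 was at least 2-fold lower. The other 16 measured genes had ratios or bounds under 2-fold, with log2 values from -0.41 to 0.78. For SCPL32 and SBT3.5 these are bounds, and the full size is not known. With no floor the log2 ratio was 1.49 for SCPL32, past 2-fold, and -0.71 for SBT3.5. With the floor, 4 of 20 measured genes were past 2-fold in either direction, against 11.1% of the 14469 measured probe sets of the array. Those at least 2-fold higher were 3 of 20, against 5.27% of all, and those at least 2-fold lower were 1 of 20, against 5.78% of all. With so few genes these shares rest on single probe sets.

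**Figure D1:**
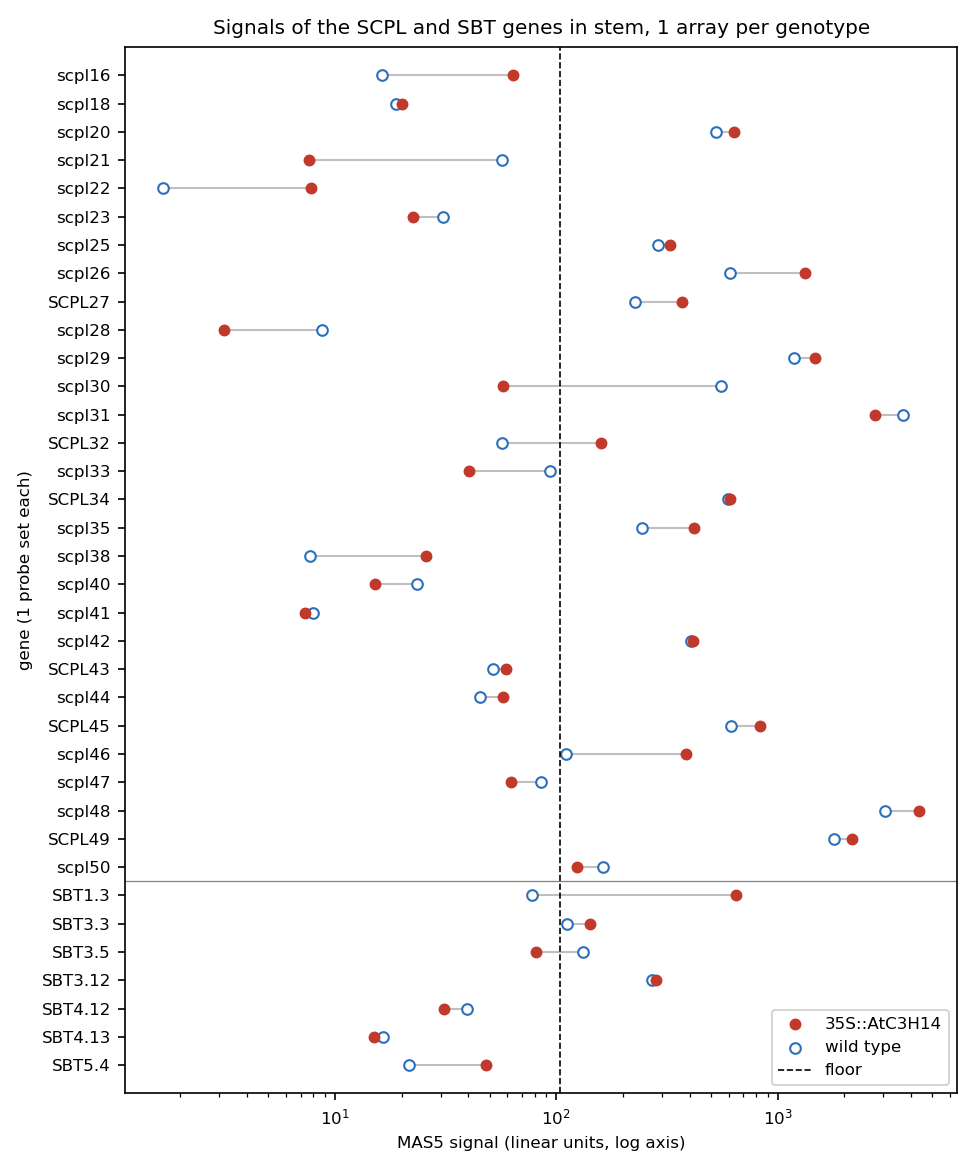
MAS5 signals (log axis) of the 29 SCPL genes and, under the grey line, the 7 SBT genes, with filled points for 35S::AtC3H14 stem, open points for wild-type stem and the floor of 104.0 dashed; each point is 1 array. SBT1.3 and scpl30 cross the floor in opposite directions, and 16 genes lie left of it on both arrays.

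The largest ratio among the subtilases was that of SBT1.3 (AT5G51750), of subfamily 1. Its signal was 651 in 35S::AtC3H14 stem and 77.8 in wild-type stem, where it lay below the floor. Only a bound can therefore be given, at least 6.26-fold higher, a log2 bound of 2.65. Of all measured probe sets 0.228% had a higher ratio or bound. The wild-type signal gives only an upper limit for SBT1.3, while the 35S::AtC3H14 signal lay well above the floor.

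Subfamily 3 was measured in full, as far as it carries the SBT symbol here. None of its 3 genes had a ratio or bound that reached 2-fold. SBT3.3 (AT1G32960), which is known from work on immune priming, had signals of 142 in 35S::AtC3H14 stem and 112 in wild-type stem, a log2 ratio of 0.34 close to the floor on both arrays. SBT3.5 (AT1G32940), which is known to process a pectin methylesterase, had 80.7 in 35S::AtC3H14 stem and 132 in wild-type stem. The first of these lay below the floor, so the log2 bound was -0.35, at least 1.27-fold lower. These neighbouring genes, with 1 protein-coding gene between them in the TAIR10.1 gene table, thus had values on opposite sides of 0 as deposited. When the arrays were scaled to their spiked hybridization controls both were below 0, at -0.10 for SBT3.3 and -0.35 for SBT3.5. The full size for SBT3.5 is not known, and with no floor its log2 ratio was -0.71. SBT3.12 (AT4G21326) had 284 in 35S::AtC3H14 stem and 270 in wild-type stem, a log2 ratio of 0.07.

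The genes of subfamilies 4 and 5 that carry the SBT symbol here lay below the floor on both arrays. SBT4.12 and SBT4.13, which take part in processing the abscission peptide IDA, had signals of 31.2 and 15.0 in 35S::AtC3H14 stem and of 39.6 and 16.4 in wild-type stem. SBT5.4, whose overexpression is known to enlarge the shoot meristem, had 47.9 in 35S::AtC3H14 stem and 21.6 in wild-type stem. No difference can be read from signals this low. Over the 4 measured SBT genes the median log2 ratio was 0.21, against 0.05 over all measured probe sets. Of the 4 genes 3 were above 0, against 54.5% of all measured probe sets. When the arrays were scaled to their spiked hybridization controls 1 of 4 was above 0, against 19.0% of all.

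Among the carboxypeptidase-like genes the largest increase was that of scpl46 (AT2G33530). Its signal was 387 in 35S::AtC3H14 stem and 110 in wild-type stem, 3.51-fold higher, a log2 ratio of 1.81. A higher ratio or bound was found for 0.981% of all measured probe sets. The wild-type signal was only 1.06 times the floor, so the size of this ratio depends on how well a signal that low is measured. Of the 1944 probe sets that both arrays read above the floor with a geometric mean signal under 2 times the floor, as for scpl46, 4.17% were at least 2-fold higher. Both limits of this band cap the ratios that it can hold. The share therefore does not tell how often signals this low give such a ratio. When the floor was raised to the 60th percentile the log2 value for scpl46 became a bound of 0.33.

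The ratio of scpl26 (AT2G35780) was smaller but rested on signals farther above the floor. It had 1336 in 35S::AtC3H14 stem and 609 in wild-type stem, 2.19-fold higher, a log2 ratio of 1.13. A higher ratio or bound was found for 3.79% of measured probe sets, and of the 5498 probe sets with a geometric mean signal from 4 to 16 times the floor, as for scpl26, 4.22% were at least 2-fold higher. When the arrays were scaled to their spiked hybridization controls its log2 ratio was 0.61, so that 2-fold was no longer reached. The gene next to it, scpl28 (AT2G35770), lay below the floor on both arrays, with 3.14 in 35S::AtC3H14 stem and 8.73 in wild-type stem. The adjacent pair therefore had one transcript measured on both arrays and one measured on neither.

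In the other direction stood scpl30 (AT4G15100). Its signal was 57.7 in 35S::AtC3H14 stem, below the floor, and 557 in wild-type stem, a bound of at least 5.35-fold lower and a log2 bound of -2.42. A lower ratio or bound was found for 0.456% of measured probe sets. It was the sole gene of either family below the floor in 35S::AtC3H14 stem with a wild-type signal of several times the floor (5.35 times). A floor at the 60th percentile gave a bound of -0.85, under 2-fold. PYK10, the measured gene of the root list, had a similar pattern, with 56.4 in 35S::AtC3H14 stem and 614 in wild-type stem, while EXPA7, the other root gene with a probe set, lay below the floor on both arrays at 9.05 in 35S::AtC3H14 stem and 23.6 in wild-type stem. Among 7 genes of the stem list 2 were also at least 2-fold lower, against 5.78% of all measured probe sets. These were CLE44 (141 in 35S::AtC3H14 stem and 524 in wild-type stem) and PHV (459 in 35S::AtC3H14 stem and 923 in wild-type stem). PHV was under 2-fold with quantile normalization (-0.995) and with the pseudocount (-0.87), and the bounds at the floor of the 60th percentile were -0.76 for CLE44 and -0.99 for PYK10. Their part in the value for scpl30 was not tested.

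**Figure D2:**
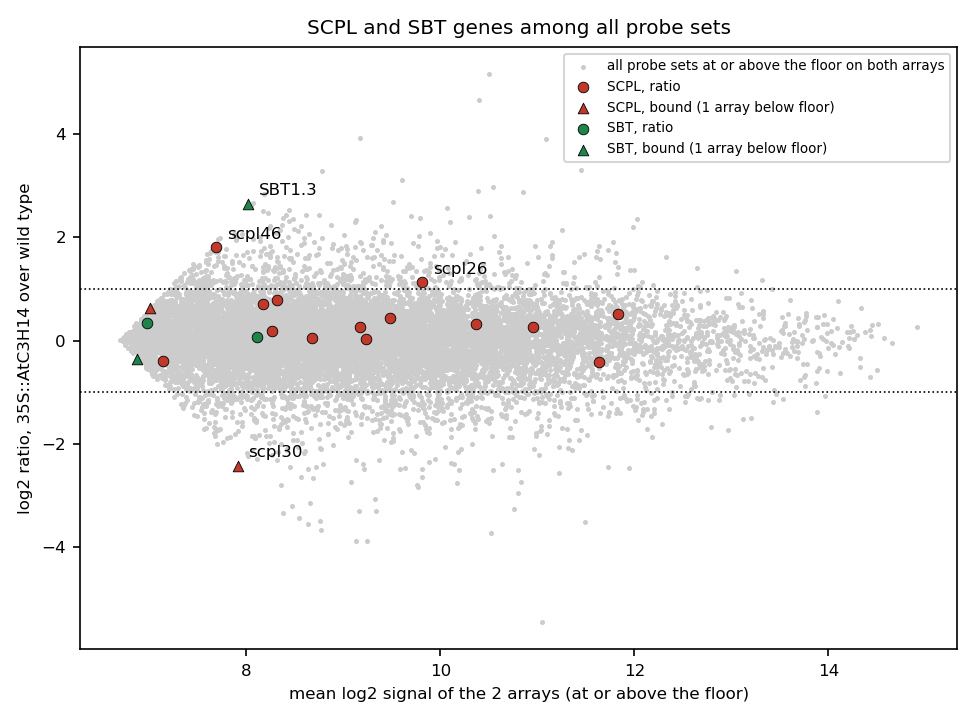
Log2 ratio of 35S::AtC3H14 over wild type against the mean log2 signal of the 2 arrays, in grey for the 12826 probe sets that reached the floor on each array and in colour for the SCPL and SBT genes (circles for ratios, triangles for bounds, with the lower signal set at the floor); dotted lines mark 2-fold. SBT1.3, scpl46 and scpl30 stand at low mean signal and scpl26 at a higher one, and the other measured genes lie between the dotted lines.

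Of the 13 measured SCPL genes with a ratio or bound under 2-fold, 11 were above 0. Over all 16 measured SCPL genes 13 were above 0, against 54.5% of all measured probe sets. With the hybridization-control scaling 5 of 16 were above 0, against 19.0% of all measured probe sets. As a yardstick of measurement spread, the log2 ratios of different probe sets for one gene were compared, and their pooled SD was 0.35 (59 genes with 121 probe sets). This SD holds no variation between plants, extractions or hybridizations. Beyond this SD, though with a ratio or bound under 2-fold, lay 5 of the 20 measured genes upward and 2 downward. Of all measured probe sets these were 22.8% and 17.4%.

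Those upward were scpl35, SCPL27, SCPL32, scpl48 and SCPL45. For scpl35 (AT5G08260) the signal was 417 in 35S::AtC3H14 stem and 244 in wild-type stem, a log2 ratio of 0.78. SCPL27 (AT3G07990) had 369 in 35S::AtC3H14 stem and 227 in wild-type stem, a log2 ratio of 0.70. With these values both stood short of 2-fold, by a ratio of 1.71 for scpl35 and 1.63 for SCPL27. SCPL32 (AT1G61130) had 160 in 35S::AtC3H14 stem and 57.0 in wild-type stem, below the floor, so that it was at least 1.54-fold higher and its full size is not known. A log2 ratio of 0.51 was found for scpl48 (AT3G45010), with 4358 in 35S::AtC3H14 stem and 3065 in wild-type stem. SCPL45 (AT1G28110) had 833 in 35S::AtC3H14 stem and 617 in wild-type stem, a log2 ratio of 0.43.

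The downward ones were scpl31 and scpl50. For scpl31 (AT1G11080) the signal was 2760 in 35S::AtC3H14 stem and 3679 in wild-type stem, a log2 ratio of -0.41. A log2 ratio of -0.39 was found for scpl50 (AT1G15000), with 124 in 35S::AtC3H14 stem and 162 in wild-type stem. Together with scpl30 they were the 3 measured SCPL genes on the lower side, at very different distances from 0.

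The remaining 6 SCPL genes lay within the SD. SCPL49 (AT3G10410), which the gene table also calls carboxypeptidase Y after the vacuolar enzyme of yeast, had 2177 in 35S::AtC3H14 stem and 1804 in wild-type stem, a log2 ratio of 0.27. The values of scpl29 (AT4G30810) were 1470 in 35S::AtC3H14 stem and 1183 in wild-type stem, with a log2 ratio of 0.31. The signals of scpl20 (AT4G12910) were 632 in 35S::AtC3H14 stem and 526 in wild-type stem, with a log2 ratio of 0.26. All 3 were above 0 by less than probe sets of one gene differ among themselves. For scpl25 (AT3G02110) the log2 ratio was 0.18, with 327 in 35S::AtC3H14 stem and 288 in wild-type stem. For scpl42 (AT5G42240) it was 0.04, with 417 in 35S::AtC3H14 stem and 404 in wild-type stem. The smallest difference among the measured genes was that of SCPL34 (AT5G23210), with 609 in 35S::AtC3H14 stem and 599 in wild-type stem, a log2 ratio of 0.02.

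Below the floor on both arrays were 13 SCPL genes, with signals from 3.14 to 64.1 in 35S::AtC3H14 stem and from 1.68 to 93.9 in wild-type stem. They included scpl16 and scpl18, the members here of the low-numbered branch of the family that holds the sinapoyltransferases SNG1 and SNG2. Their signals were 64.1 and 20.1 in 35S::AtC3H14 stem and 16.4 and 19.0 in wild-type stem. The others were scpl21, scpl22, scpl23, scpl28, scpl33, scpl38, scpl40, scpl41, SCPL43, scpl44 and scpl47. Nearest the floor was scpl33 (AT3G17180), with 40.2 in 35S::AtC3H14 stem and 93.9 in wild-type stem. The adjacent genes scpl22 and scpl23 both lay below it, while scpl41 lay below it and scpl42, with 2 protein-coding genes between them, was measured on both arrays. No ratio is given for any of these 13 genes.

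Over the 16 measured SCPL genes the median log2 ratio was 0.29, a ratio of 1.22, with quartiles of 0.04 and 0.64. Over all measured probe sets the median was 0.05, with quartiles of -0.32 and 0.40. Among the 14 SCPL genes with both signals at or above the floor the SD of the log2 ratio was 0.58, against 0.64 over all such probe sets. Of both families together 16 of 20 measured genes, or 80.0%, had a log2 ratio or bound above 0, against 54.5% of all measured probe sets. This side of 0 rests on the scaling of the arrays. The 18 probe sets of the spiked hybridization controls were on average 1.44-fold higher on the 35S::AtC3H14 array, and when the arrays were scaled to them 6 of 20 genes were above 0, against 19.0% of all measured probe sets. The median of the 20 genes was then -0.23, against -0.44 over all measured probe sets. Relative to the median of all measured probe sets it was 0.24 higher as deposited and 0.21 higher with that scaling, but 0.083 higher with no floor and 0.039 higher with a pseudocount, where all 36 genes enter.

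**Figure D3:**
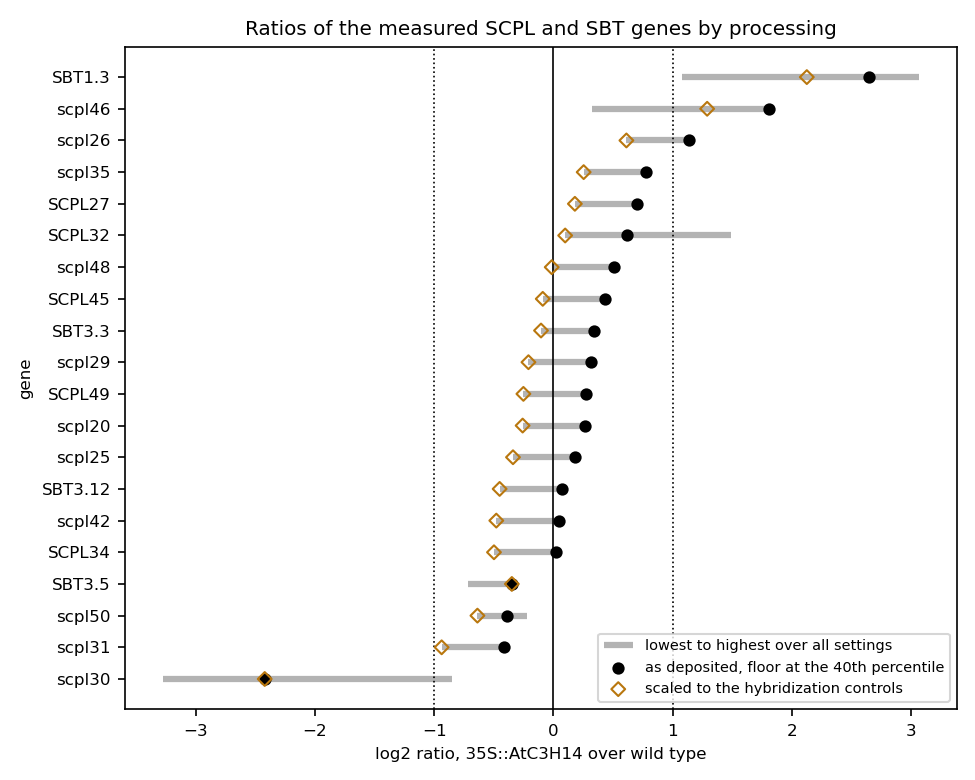
Log2 ratio or bound of 35S::AtC3H14 over wild type for the 20 measured genes, with black points for the signals as deposited, open diamonds for arrays scaled to the hybridization controls, and grey lines from the lowest to the highest value over the settings that gave one; dotted lines mark 2-fold. With the diamonds 6 genes stay above 0, SBT1.3, scpl46, scpl26, scpl35, SCPL27 and SCPL32, and SBT1.3 stays past 2-fold over its whole line.

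Other genes of protein breakdown were read from lists by gene name. Subtilases under another name had probe sets for 3 of 12 entries, and all 3 were measured, under 2-fold and below wild type. Of all measured probe sets 11.1% were past 2-fold, a share from which 3 genes cannot be told. ARA12, a subtilase that acts in the release of seed mucilage, had 2711 in 35S::AtC3H14 stem and 3640 in wild-type stem, a log2 ratio of -0.42. TPP2, the large tripeptidyl peptidase, had 1931 in 35S::AtC3H14 stem and 2508 in wild-type stem, a log2 ratio of -0.38. S1P, the subtilase of the Golgi that cleaves membrane-bound transcription factors, had 215 in 35S::AtC3H14 stem and 271 in wild-type stem, a log2 ratio of -0.34. As deposited these 3 values are close to the SD between probe sets, and none is near the bound of SBT1.3. With the hybridization-control scaling they were -0.95 for ARA12, -0.90 for TPP2 and -0.86 for S1P, beyond that SD but still under 2-fold. The median of all measured probe sets was then -0.44. Of the 3 carboxypeptidase-like genes listed under another name (SNG1, SNG2 and BRS1) none had a probe set that the annotation assigns to it alone.

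Cysteine proteases, aspartic proteases, metacaspases and vacuolar processing enzymes made up 38 entries, of which 7 had a probe set of their own and 4 were measured. Past 2-fold were 0 of these 4, against 11.1% of all measured probe sets, and 4 genes are too few to be told from that share. GAMMA-VPE, a vacuolar processing enzyme that matures other vacuolar proteins, differed most, with 10293 in 35S::AtC3H14 stem and 17385 in wild-type stem, a log2 ratio of -0.76, or -1.28 with the hybridization-control scaling. BETA-VPE had a log2 ratio of -0.39, and the aspartic proteases APA1 and NANA had 0.05 and 0.24. Of 16 protease inhibitors 2 were measured, and 1 of these was at least 2-fold higher, against 5.27% of all measured probe sets. SERPIN1, an inhibitor of cysteine proteases, was at least 2-fold higher, with 2106 in 35S::AtC3H14 stem and 1027 in wild-type stem, 2.05-fold. Its log2 ratio of 1.04 became 0.93 with each array centred on its median and 0.51 with the hybridization-control scaling, both under 2-fold. CYS1, a cystatin, had a log2 ratio of 0.54. In the sinapate ester pathway, the route in which SCPL acyltransferases act, 3 of 11 entries were measured and all were under 2-fold. These too are few genes beside the 11.1% of all measured probe sets past 2-fold. The glucosyltransferase UGT84A3 had 406 in 35S::AtC3H14 stem and 780 in wild-type stem, a log2 ratio of -0.94, which passed 2-fold lower with median centring (-1.05) and with the hybridization-control scaling (-1.46). HCT, which also serves lignin synthesis, had a log2 ratio of -0.47 and REF1 of 0.21.

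**Figure D4:**
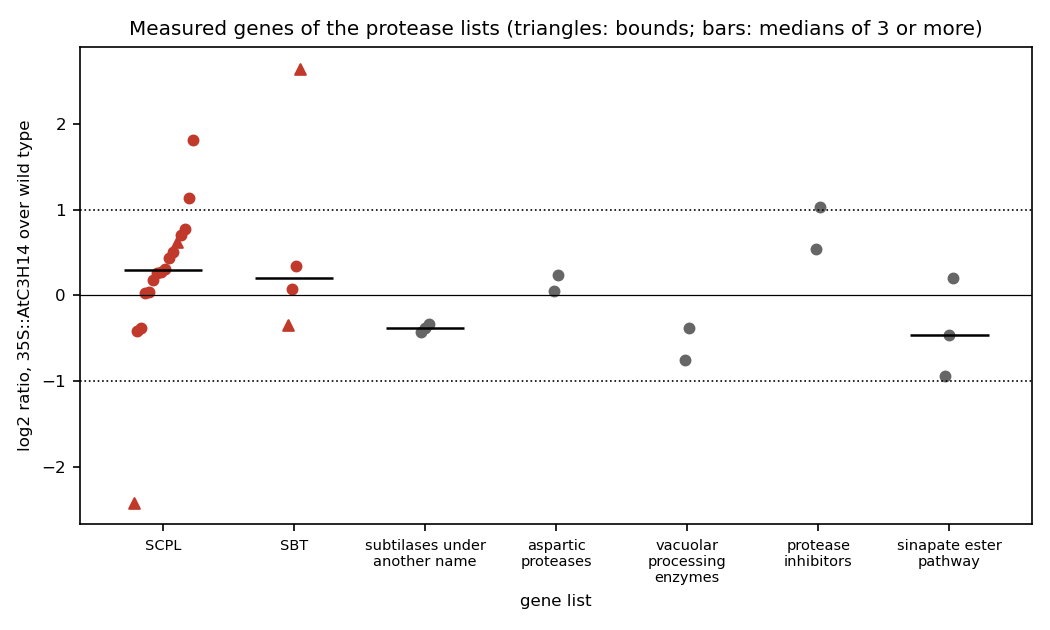
Log2 ratio of 35S::AtC3H14 over wild type for each measured gene of the SCPL and SBT families (red) and of 5 other lists, of proteases, their inhibitors and sinapate esters (grey), with triangles for bounds, bars for medians of 3 or more genes and dotted lines at 2-fold. The SCPL genes spread from -2.42 to 1.81, and among the grey points SERPIN1 lies past a dotted line, at 1.04.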

How the data were processed

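Stem RNA of 1 sample per genotype was labelled with biotin from 10 ug of total RNA and read on ATH1 arrays, per the labels. The authors deposited linear probe-set intensity values that MAS5 computed, per the submitters' processing notes. Its version, scaling target and detection calls are not stated there. The trimmed mean (2% off each end) was 500.04 on both arrays, so a common shift of every transcript is hidden. The 64 control probe sets were set apart, leaving 22746. Signals were at or above the floor for 61.0% of these in 35S::AtC3H14 stem and 59.0% in wild-type stem, and the number of arrays limits the precision.

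Genes were named through the platform annotation, and all 36 members matched the TAIR10.1 gene table. That table holds 58 genes with an SCPL or SBT name, and the other 22 were not analysed here by name. No member's probe set ends in _s_at or _x_at, the endings of sets that can read several transcripts. No source names the array's genome build, so the table served only for names and gene order. All members were to be named, with up to 4 measured genes of each other list and AtC3H14. The members, lists and alternatives were chosen with earlier results of these data known. Ratios were computed in Python 3.11.15 with numpy 2.4.6 and pandas 2.3.3, and loess with statsmodels 0.14.6. The code for the ratios was run on simulated signals with known changes set well above the floor. That run checks the arithmetic and says nothing of ratios near the floor. Without replicates no p-value was computed.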

Additional observations from a re-analysis of the deposited data

How the results depend on the processing

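Median centring, quantile normalization and loess (span 0.4) left 3 genes at least 2-fold higher and 1 lower of 20. Of all measured probe sets 11.4%, 11.0% and 11.0% were then past 2-fold, in that order. No gene's log2 ratio moved by the SD of 0.35 or more with these settings, and no family median moved by that much. With no floor, where all 36 genes have a ratio, 8 were higher and 4 lower, against 25.7% of all probe sets past 2-fold. Lowering the floor to the 20th percentile (25.9) gave 5 higher and 3 lower of 29 measured genes (16.3% of all), and raising it to the 60th (308) gave 2 higher and 0 lower of 15 (8.99% of all), by bounds that shrink as the floor is raised. At 3-fold 2 were higher and 1 lower of 20, a size at which no share of all probe sets was taken. With the floor value added as a pseudocount 3 were higher and 1 lower of 36 (4.85% of all). The scaling to the hybridization controls left 2 higher and 1 lower of 20 (18.3% of all), and moved the medians to -0.23 for SCPL, -0.23 for SBT and -0.23 for both. It lowers by 0.52, by construction, each log2 ratio not limited by the floor, and it moved the median of all measured probe sets by -0.50. Median centring moved that median by -0.10. Higher ones made up 47.7% of all measured probe sets past 2-fold as deposited, 37.1% with median centring and 10.1% with the hybridization-control scaling. Of 155 values of single genes under these settings 32 moved by the SD or more, 17 of them with the hybridization-control scaling. The value for SBT1.3 ran from 1.08 with the floor at the 60th percentile to 3.07 with no floor, that for scpl46 from 0.33 to 1.81, and that for scpl30 from -3.27 to -0.85. Of the subtilases under another name 0 of 3 were past 3-fold, again with no share of all probe sets to set beside it. With the hybridization-control scaling 0 of 3 were past 2-fold, against 18.3% of all measured probe sets. With the floor at the 60th percentile, where S1P has no ratio, 0 of 2 were, against 8.99% of all. So few genes cannot be told from these shares. No paired analysis was possible because each genotype has 1 array, which also leaves no replicate to omit. The 16 genes below the floor limit what can be read.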

Other observations

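The genes next to the 4 that passed 2-fold were read from their order in the TAIR10.1 gene table, a choice made after the values were seen. Of 8 flanking protein-coding genes, 4 had a probe set of their own and 3 were measured. At least 2-fold higher or lower were 0 of these 3, against 11.1% of all measured probe sets, a share from which 3 genes cannot be told. AT5G51740, beside SBT1.3, had 559 in 35S::AtC3H14 stem and 492 in wild-type stem. AT2G35790, beside scpl26, had 310 in 35S::AtC3H14 stem and 276 in wild-type stem. AT2G33520, beside scpl46, had 117 in 35S::AtC3H14 stem and 27.7, below the floor, in wild-type stem, a log2 bound of 0.18 that leaves its full size unknown. The genes flanking scpl30 had no probe set that the annotation assigns to them alone. A further 2 probe sets assigned to several genes, with an SCPL gene among them, lay below the floor on both arrays, with a highest signal of 16.0.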
